A study of Homo sapiens with 12 samples.

Results

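Transcript levels of 10 genes of the Krüppel-like factor (KLF) family were described in OPM2 cells after a short exposure to 3 small-molecule inhibitors. The genes were *KLF2*, *KLF3*, *KLF4*, *KLF6*, *KLF7*, *KLF9*, *KLF10*, *KLF11*, *KLF13* and *KLF16*, taken as the rows of the count table whose Ensembl identifier carries one of these symbols. They make up 10 of 63152 identifiers, and 9 of them were among the 13180 that passed the expression filter and could be tested. *KLF4* had too few counts and is given by its values. OPM2 is an established line grown from a human multiple myeloma, a cancer of plasma cells. The cells were treated for 2 h with 18DS at 250 nM, JQ1 at 250 nM, BKM120 at 1 µM or the vehicle DMSO. JQ1 displaces BET proteins from acetylated chromatin, BKM120 (buparlisib) is a PI3K inhibitor, and the series title presents 18DS as one designed molecule that inhibits PI3K and BET proteins at once. Each group had 3 libraries, which the submitters call biological triplicates, and no group received JQ1 and BKM120 in combination. Everything below therefore describes 1 cell line at 1 time, and 18DS and JQ1 are the pair at a matched dose.

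KLF proteins are transcription factors that read GC-rich and CACCC elements through a conserved set of zinc fingers at their carboxyl end, and they differ mostly in what the rest of the protein recruits. *KLF2*, *KLF4*, *KLF6* and *KLF7* encode factors that mainly activate, in part by binding acetyltransferases such as p300 and CBP. *KLF3* encodes a repressor that works with the CtBP corepressors, and *KLF9*, *KLF10*, *KLF11*, *KLF13* and *KLF16* encode factors that bind the SIN3A corepressor. KLF2 holds lymphocytes in quiescence and directs their homing. In lymphocytes its gene is switched on by FOXO factors and held down when PI3K and AKT signal. In endothelial cells the MEK5, ERK5 and MEF2 route raises it. In myeloma cells KLF2 has been placed in a circuit with the demethylase KDM3A and the plasma cell factor IRF4.

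Promoter sequences were available for 8 of the 10 genes (12 start sites). Those of *KLF2*, *KLF13* and *KLF16* are shown, the gene with the highest level in 18DS and BKM120 libraries beside a pair that was lower than DMSO in both. Each is 300 bases long, from 250 before to 50 after the start of the gene, written 5′ to 3′ on the strand of the gene. The sequences and coordinates are those of RefSeq on GRCh38.p14, while the counts were made on hg19, so the genes were matched by symbol only. Capitals mark 3 motifs, each searched on both strands, with overlapping matches run together. The GC box was read as GGGCGG and its reverse complement. The CACCC box was read as those 5 letters and their reverse complement. The third is the MEF2 site. The positions are chr19:16324576-16324875 on the plus strand for *KLF2*, chr15:31326585-31326884 on the plus strand for *KLF13* and chr19:1863530-1863829 on the minus strand for *KLF16*.
KLF2: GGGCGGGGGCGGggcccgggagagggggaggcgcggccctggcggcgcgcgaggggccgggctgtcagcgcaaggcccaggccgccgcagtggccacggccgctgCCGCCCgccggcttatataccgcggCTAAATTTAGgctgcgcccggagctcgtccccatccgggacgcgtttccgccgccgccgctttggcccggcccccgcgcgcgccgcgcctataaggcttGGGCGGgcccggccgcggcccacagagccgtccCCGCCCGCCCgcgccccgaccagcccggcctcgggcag
KLF13: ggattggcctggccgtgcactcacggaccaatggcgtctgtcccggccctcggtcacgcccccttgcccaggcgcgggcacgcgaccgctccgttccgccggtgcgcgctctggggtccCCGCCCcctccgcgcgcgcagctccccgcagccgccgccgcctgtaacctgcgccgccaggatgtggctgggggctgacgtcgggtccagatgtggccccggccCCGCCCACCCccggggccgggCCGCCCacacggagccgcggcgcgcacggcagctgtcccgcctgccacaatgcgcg
KLF16: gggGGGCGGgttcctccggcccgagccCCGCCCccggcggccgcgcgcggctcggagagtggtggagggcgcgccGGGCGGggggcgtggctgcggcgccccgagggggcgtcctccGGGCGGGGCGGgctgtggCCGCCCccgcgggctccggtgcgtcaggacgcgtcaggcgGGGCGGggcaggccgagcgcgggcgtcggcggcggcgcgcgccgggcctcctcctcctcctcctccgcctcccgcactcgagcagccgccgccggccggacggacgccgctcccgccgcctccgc
The *KLF2* promoter held 6 GC boxes and 1 MEF2 site, which begins at position -120 relative to the start and lies between them. The *KLF13* promoter held 3 GC boxes and 1 CACCC box, and the *KLF16* promoter held 7 GC boxes, with overlapping matches counted separately. Across all 35116 RefSeq promoters of the same length, searched on both strands, 45% held a GC box, 59.9% a CACCC box and 2.99% a MEF2 site. The forkhead core GTAAACA, or TGTTTAC on the other strand, was in 3.42% of all promoters and in 0 of the 12 KLF promoters. The G and C content was 80.7% for *KLF2*, 78.3% for *KLF13* and 86% for *KLF16*, against a median of 58.7% over all promoters. These are matches of letters in one window and say nothing about which factor was bound.

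Transcripts were counted by QuantSeq, which sequences a single tag near the 3′ end of each polyadenylated RNA, so levels are given as CPM, counts scaled to a common library size, without division by gene length. Library totals were 5882214 to 7292895 counts for 18DS, 5501895 to 7692013 for JQ1, 5563788 to 6883854 for BKM120 and 5940610 to 6594995 for DMSO. Between replicates the chi-square statistic over genes, divided by its degrees of freedom, was 1.92 to 8.83, where counting noise alone gives values near 1. The 18DS replicate 2 library stood apart within its group, at 8.83 and 6.05 from the other two 18DS libraries, which differed from each other by 2.89. At smaller values, DMSO replicate 1 was at 4.30 and 4.76 from the other DMSO libraries, which differed by 1.92. BKM120 replicate 2 was at 3.75 and 5.44 from the other BKM120 libraries, which differed by 2.82. All 10 plasma cell and myeloma markers were present in the table and 9 were tested. Their summed level was 4071 to 4655 CPM in 18DS libraries, 4506 to 4788 CPM in JQ1, 4777 to 5012 CPM in BKM120 and 5012 to 5041 CPM in DMSO. Of these 9 markers, 6 were lower with 18DS, 6 were lower with JQ1, and with BKM120 1 was higher and 2 were lower, all against DMSO by edgeR. Over all tested genes 11.0% were called lower with 18DS and 3.45% with JQ1, and with BKM120 4.07% were higher and 4.14% lower. Markers of T and NK cells summed to at most 1.43 CPM in any library (0 of 8 tested; *CD3D* and *NKG7* at 0 throughout), myeloid markers to at most 3.24 CPM (1 of 8 tested; *FCGR3A* at 0) and epithelial and fibroblast markers to at most 3.37 CPM (0 of 8 tested; *COL3A1* at 0).

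In vehicle-treated cells *KLF13* was the most abundant of the 10 genes, at 100.04 ± 3.29 CPM (SD, n = 3). *KLF6* followed at 44.3 ± 3.10 CPM and *KLF2* at 41.8 ± 3.61 CPM, and these neighbours overlapped between libraries. *KLF16* stood at 14.96 ± 1.45 CPM and *KLF3* at 13.0 ± 0.844 CPM, and *KLF11*, *KLF10*, *KLF9* and *KLF7* lay between 2.69 and 4.601 CPM. *KLF4* was close to the detection floor, at 0.592 ± 0.413 CPM. This order was different in 18DS and BKM120 libraries, with *KLF2* first at 129.7 ± 27.4 CPM in 18DS libraries and 291 ± 23.9 CPM in BKM120 libraries. In JQ1 libraries *KLF13* (63.7 ± 5.17 CPM) stayed above *KLF2* (49.4 ± 9.64 CPM). CPM are shares of a library's tags, so in these bulk samples a change in fewer cells, a change in every cell and a change in total RNA per cell cannot be told apart.

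**Figure D1:**
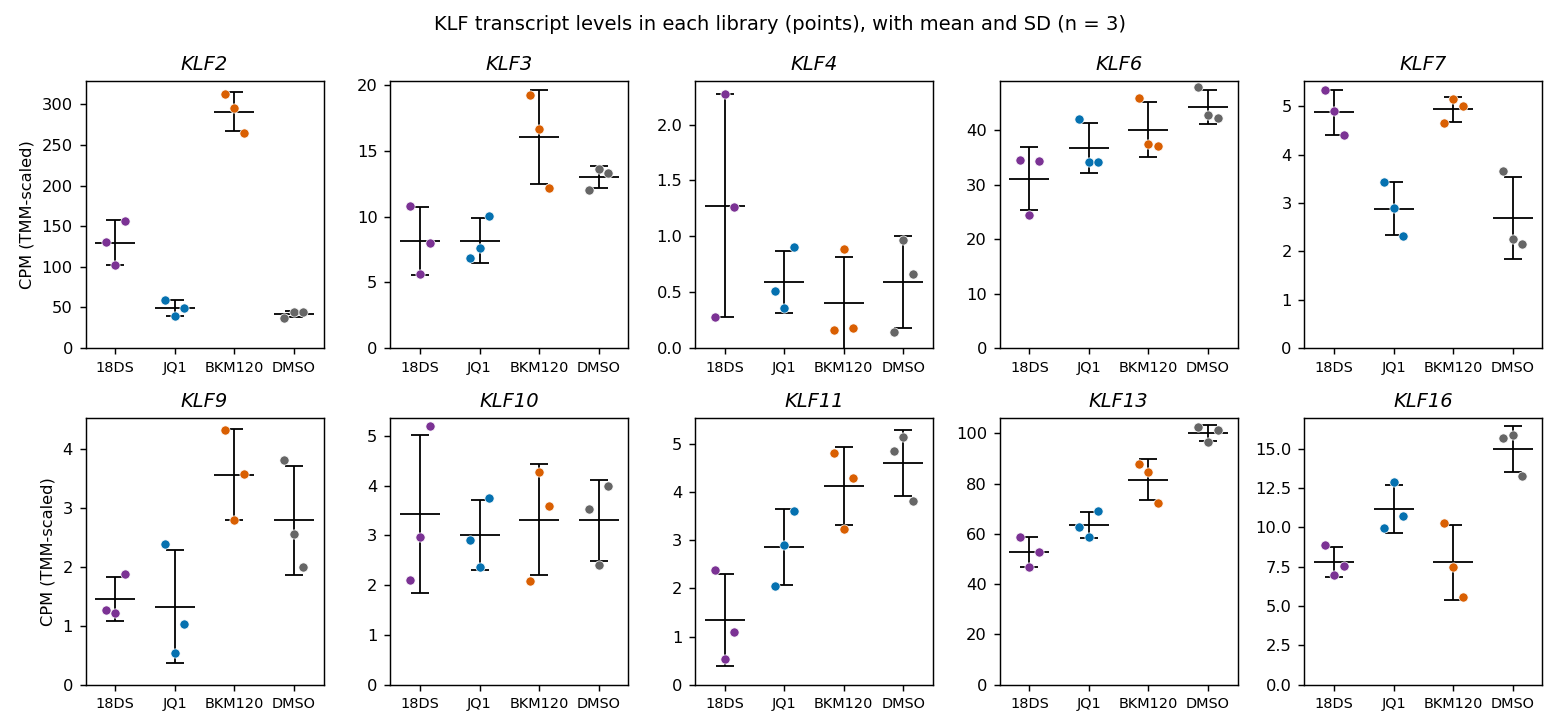
Levels of the 10 KLF genes in CPM on TMM-scaled library sizes (vertical axes, linear, each panel with its own range) in the 18DS, JQ1, BKM120 and DMSO libraries. Points are single libraries, the wide line is the mean and the whiskers are the SD (n = 3); the lower whisker of KLF4 in BKM120 is cut by the axis at 0. KLF2 stands at 102 to 156 CPM in the 18DS libraries, below the BKM120 libraries (265 to 312 CPM) and above all JQ1 and DMSO libraries.

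The share of KLF tags that came from *KLF2* differed between the 4 groups without overlap. It was 53.4% ± 3.40 in 18DS libraries, 27.3% ± 3.16 in JQ1 libraries, 64.3% ± 0.681 in BKM120 libraries and 18.3% ± 1.83 in DMSO libraries (SD, n = 3 each). The 18DS libraries ran from 51.3% to 57.3% and the BKM120 libraries from 63.5% to 64.9%, above every JQ1 library (24.5% to 30.7%), and these in turn lay above every DMSO library (16.2% to 19.4%). For a single library the 95% exact Clopper-Pearson interval of this share spanned, in the JQ1 replicate 2 library with the fewest KLF tags (895), 21.7% to 27.4%, which covers counting error only. The share of *KLF13* ran the other way, at 22.02% ± 2.32 in 18DS, 35.5% ± 2.41 in JQ1, 18.0% ± 0.443 in BKM120 and 43.9% ± 1.08 in DMSO libraries. Both are parts of the same total, so a higher *KLF2* share by itself lowers that of *KLF13*. Likewise, a lower sum of the other members by itself raises the *KLF2* share. Between JQ1 and DMSO libraries the *KLF2* level overlapped (means of 49.4 and 41.8 CPM, edgeR adjusted p = 0.516), while the sum of the other members was lower with JQ1. By level *KLF13* had another order, at 52.8 CPM in 18DS, 63.7 CPM in JQ1 and 81.5 CPM in BKM120 libraries. The summed level of the 10 genes was 242 ± 39.6 CPM in 18DS, 179.8 ± 15.6 CPM in JQ1, 453 ± 41.6 CPM in BKM120 and 228 ± 3.28 CPM in DMSO libraries. Without *KLF2*, the other 9 genes summed to 112 ± 14.9 CPM in 18DS, 130.4 ± 6.93 CPM in JQ1, 161.8 ± 17.8 CPM in BKM120 and 186 ± 6.89 CPM in DMSO libraries. With *KLF2* set aside, every library of the 3 inhibitors lay below every DMSO library. *KLF13* was the largest part of this sum, at 100.04 CPM in DMSO and 81.5 CPM in BKM120 libraries. The sum does not stand for each gene. With BKM120 the means of *KLF3*, *KLF7*, *KLF9* and, marginally, *KLF10* were above those with DMSO, and the means of *KLF4*, *KLF6*, *KLF11*, *KLF13* and *KLF16* were below. No test was run on these sums.

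**Figure D2:**
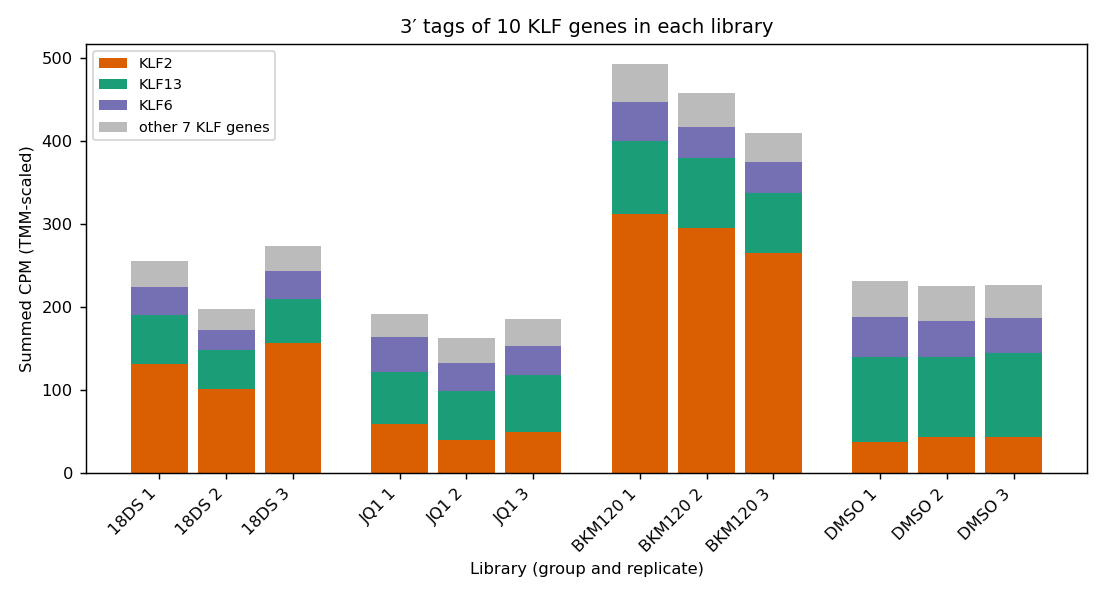
Summed CPM of the 10 KLF genes (vertical axis, linear from 0) in each of the 12 libraries, divided into KLF2, KLF13, KLF6 and the other 7 genes. The KLF2 block is largest in the BKM120 libraries and intermediate in the 18DS libraries, while the KLF13 block is tallest in the DMSO libraries (96.3 to 103 CPM).

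*KLF2* (ENSG00000127528) was the member that moved furthest upward. It had 131, 102 and 156 CPM in the 18DS libraries, 59.0, 39.7 and 49.4 CPM in the JQ1 libraries, 312, 295 and 265 CPM in the BKM120 libraries and 37.6, 43.8 and 43.9 CPM in the DMSO libraries. The BKM120 libraries lay above all others, the 18DS libraries above all JQ1 and DMSO libraries, and the JQ1 and DMSO libraries overlapped. Against DMSO it rose with 18DS by 1.64 on the log2 scale, a 3.11-fold higher level (SE 0.16, 95% confidence interval 1.29 to 1.99, edgeR quasi-likelihood adjusted p = 1.16e-05). With BKM120 it rose by 2.80, or 6.97-fold (SE 0.16, interval 2.46 to 3.15, edgeR adjusted p = 2.64e-07). With JQ1 its log2 difference from DMSO was 0.25, with an interval of -0.12 to 0.61 (edgeR adjusted p = 0.516). The 18DS replicate 2 library, which stood apart over all genes, had the lowest *KLF2* level of its group, and without it the change with 18DS was 1.79.

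The remaining activator genes did not share one direction. *KLF6* (ENSG00000067082), known as a growth suppressor and wound-response factor, had 34.6, 24.5 and 34.3 CPM with 18DS, 42.0, 34.1 and 34.1 CPM with JQ1, 45.9, 37.4 and 37.1 CPM with BKM120 and 47.9, 42.9 and 42.2 CPM with DMSO. All 18DS libraries were below all DMSO libraries, as were the JQ1 libraries by a narrow margin, and the BKM120 libraries overlapped them. *KLF6* fell with 18DS (log2 fold change -0.50, SE 0.12, edgeR adjusted p = 0.00302), and the differences with JQ1 (-0.28, adjusted p = 0.21) and BKM120 (-0.14, adjusted p = 0.511) did not pass. *KLF7* (ENSG00000118263), best known from neuronal development and from blood progenitors, had 5.34, 4.90 and 4.41 CPM with 18DS, 3.43, 2.90 and 2.32 CPM with JQ1, 4.65, 5.15 and 5.02 CPM with BKM120 and 3.67, 2.25 and 2.16 CPM with DMSO. The 18DS and BKM120 libraries overlapped each other and lay above all JQ1 and DMSO libraries. *KLF7* rose with 18DS by 0.84 (SE 0.29, edgeR adjusted p = 0.033), while a difference of 0.86 with BKM120 (SE 0.29) missed the threshold at an adjusted p of 0.0572. These are counts of 13 to 38 per library, and the 18DS call was lost without 18DS replicate 1 (adjusted p = 0.0821), 18DS replicate 2 (0.0631), DMSO replicate 2 (0.118) or DMSO replicate 3 (0.123), while the BKM120 difference passed without 18DS replicate 2 (0.0467) or DMSO replicate 1 (0.0405).

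*KLF4* (ENSG00000136826), a pluripotency factor that restrains B cell proliferation, did not pass the expression filter and was not tested. Its raw counts were 2, 13 and 8 in the 18DS libraries, 3, 2 and 7 in JQ1, 1, 6 and 1 in BKM120 and 1, 6 and 4 in DMSO. The 4 groups overlapped, and no order can be read at this depth.

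*KLF3* (ENSG00000109787), the CtBP-dependent repressor that shapes B cell subsets in mice, had 10.8, 5.601 and 8.03 CPM with 18DS, 6.86, 7.62 and 10.1 CPM with JQ1, 19.3, 16.6 and 12.2 CPM with BKM120 and 12.04, 13.6 and 13.3 CPM with DMSO. The 18DS and JQ1 libraries overlapped each other and were all below the DMSO and BKM120 libraries, which also overlapped. It fell with 18DS (log2 fold change -0.65, SE 0.21, edgeR adjusted p = 0.0219). The difference with JQ1 was almost the same in size (-0.64, SE 0.21) but missed the threshold, at an adjusted p of 0.0568, and with BKM120 it was 0.31 (adjusted p = 0.334). These calls rest on single libraries. The 18DS call was lost without 18DS replicate 2 (-0.45, adjusted p = 0.137), 18DS replicate 3 (0.0704), DMSO replicate 2 (0.0717) or DMSO replicate 3 (0.0605), and the JQ1 difference passed without 18DS replicate 1 (0.0343), 18DS replicate 2 (0.0236), JQ1 replicate 3 (0.0418) or BKM120 replicate 3 (0.0409).

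Among the genes for SIN3A-binding factors, *KLF13* showed the clearest change. *KLF13* (ENSG00000169926), known from *CCL5* transcription in T cells, had 58.9, 46.7 and 52.9 CPM with 18DS, 62.9, 58.9 and 69.2 CPM with JQ1, 87.8, 84.6 and 72.2 CPM with BKM120 and 103, 96.3 and 101 CPM with DMSO. The 4 groups stepped down from DMSO through BKM120 and JQ1 to 18DS without overlap, with JQ1 replicate 2 and 18DS replicate 1 meeting at 58.9 CPM. *KLF13* fell with 18DS (log2 fold change -0.92, SE 0.10, edgeR adjusted p = 5.57e-09) and with JQ1 (-0.65, SE 0.10, adjusted p = 9.2e-06). With BKM120 the fall was 0.29 (SE 0.09, adjusted p = 0.0444), and this call was lost without 18DS replicate 3, without any 1 of the JQ1 or DMSO libraries, and without BKM120 replicate 1 or 3 (adjusted p = 0.0514 to 0.254).

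*KLF16* (ENSG00000129911), a regulator of metabolic genes that binds GC-rich promoters, had 8.85, 7.001 and 7.56 CPM with 18DS, 9.94, 12.9 and 10.7 CPM with JQ1, 10.3, 7.51 and 5.55 CPM with BKM120 and 15.7, 15.9 and 13.3 CPM with DMSO. Every inhibitor library was below every DMSO library, and the 18DS libraries fell within the range of the BKM120 libraries. It fell with 18DS by 0.93 (SE 0.19, edgeR adjusted p = 0.000455) and with BKM120 by 0.94 (SE 0.19, adjusted p = 0.0015), and the difference with JQ1 was -0.43 (SE 0.18, adjusted p = 0.186). An antisense identifier that overlaps *KLF16* held 9.9% to 35.5% as many counts as *KLF16* itself, and the strand setting of the counting is not given in the sources used here.

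*KLF11* (ENSG00000172059), a TGF-beta-inducible repressor, had 2.39, 0.53 and 1.10 CPM with 18DS, 2.06, 2.90 and 3.61 CPM with JQ1, 4.81, 3.24 and 4.30 CPM with BKM120 and 4.84, 5.14 and 3.82 CPM with DMSO. The 18DS and JQ1 libraries were all below the DMSO libraries, and the BKM120 libraries overlapped them. *KLF11* fell with 18DS by 1.71 (SE 0.39, edgeR adjusted p = 0.000883), and neither JQ1 (-0.66, adjusted p = 0.281) nor BKM120 (-0.17, adjusted p = 0.803) passed. The size of the fall with 18DS rests on single libraries, at -2.44 without 18DS replicate 1 and -1.37 without 18DS replicate 2, and it passed in both. An overlapping antisense identifier (ENSG00000271787) carried at least 75.0% as many counts in each library, 212 against 247 for *KLF11* over the 12 libraries. Reads of the *KLF11* transcript and of its antisense partner cannot be told apart here.

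*KLF9* (ENSG00000119138), a glucocorticoid- and thyroid-hormone-responsive gene, had 1.26, 1.23 and 1.89 CPM with 18DS, 2.40, 0.54 and 1.03 CPM with JQ1, 4.33, 2.80 and 3.58 CPM with BKM120 and 3.82, 2.57 and 1.99 CPM with DMSO. The 18DS libraries were below all BKM120 and DMSO libraries, by a narrow gap in the case of DMSO, and the JQ1 and DMSO libraries overlapped. No difference from DMSO passed by edgeR (18DS -0.94, adjusted p = 0.109; JQ1 -1.09, adjusted p = 0.144; BKM120 0.33, adjusted p = 0.637), although the JQ1 difference did without JQ1 replicate 1 (-1.75, adjusted p = 0.0392). *KLF10* (ENSG00000155090), the TGF-beta-inducible early gene, had 2.11, 2.98 and 5.19 CPM with 18DS, 2.91, 2.36 and 3.74 CPM with JQ1, 2.09, 4.27 and 3.58 CPM with BKM120 and 3.52, 2.41 and 3.99 CPM with DMSO. All 4 groups overlapped. The interval of the 18DS difference from DMSO ran from -0.65 to 0.74 on the log2 scale, so changes within that range are not excluded.

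**Figure D3:**
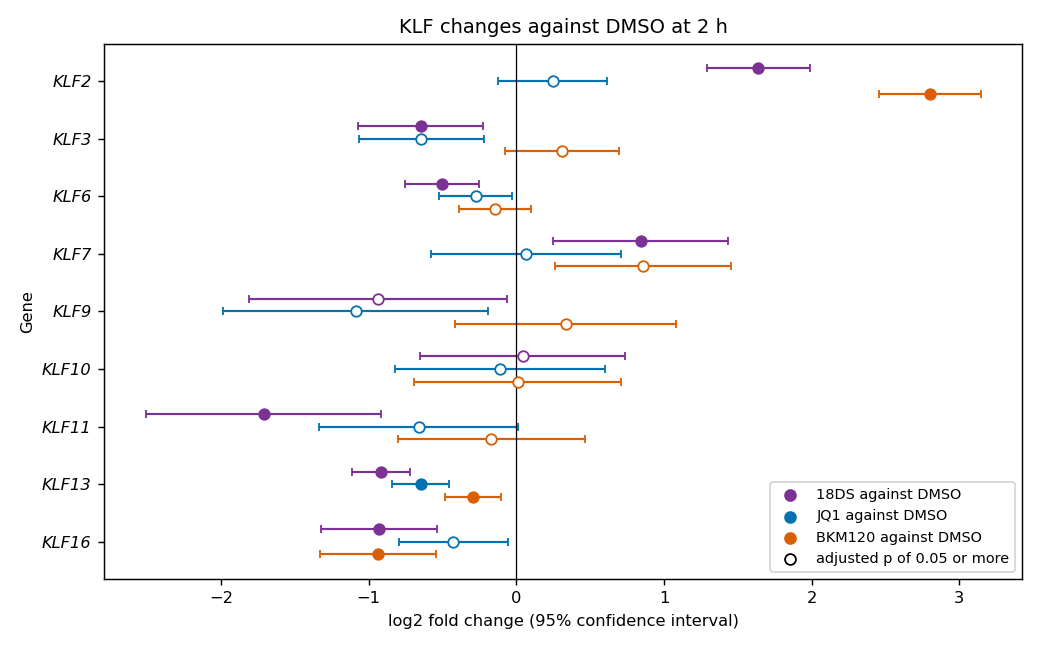
Log2 fold change against DMSO (horizontal axis) of the 9 tested KLF genes for 18DS, JQ1 and BKM120, with 95% confidence intervals from the edgeR fit; filled points passed an adjusted p of 0.05. KLF2 stands at 1.64 with 18DS and 2.80 with BKM120, while KLF13 lies below 0 with each compound.

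Counted together, 2 of the 9 tested members rose with 18DS (*KLF2*, *KLF7*) and 5 fell (*KLF3*, *KLF6*, *KLF11*, *KLF13*, *KLF16*). Over all tested genes 9.95% were called higher and 11.0% lower in that comparison. The split over all genes depends on the scaling, with 1312 higher and 1456 lower by TMM, 898 and 2025 by total counts and 1675 and 1213 by upper-quartile factors. With JQ1 0 rose and 1 fell (*KLF13*), where 2.63% of all genes were higher and 3.45% lower; edgeR at an unadjusted p under 0.05 gave 0 higher and 5 lower members, and DESeq2 and limma-voom each called 0 higher and 1 lower. Over all genes that split was 346 higher and 455 lower by TMM, 304 and 555 by total counts and 413 and 379 by upper-quartile factors. With BKM120 1 rose (*KLF2*) and 2 fell (*KLF13*, *KLF16*), where 4.07% of all genes were higher and 4.14% lower. That split was 536 higher and 546 lower by TMM, 439 and 815 by total counts and 734 and 431 by upper-quartile factors. The median log2 fold change of the 9 members was -0.65 with 18DS, -0.43 with JQ1 and 0.01 with BKM120, beside medians of -0.0033, 0.0030 and 0.00014 over all tested genes. The 3 comparisons share the DMSO libraries and are not independent of each other. The *KLF7* call decides whether 1 or 2 members rose with 18DS, and the *KLF3* call whether 4 or 5 fell. The *KLF3* difference decides whether 1 or 2 fell with JQ1. With BKM120 the *KLF7* difference decides whether 1 or 2 rose, and the *KLF13* call whether 1 or 2 fell. Each depends on the libraries named above. The summed plasma cell markers were also lower in every 18DS and JQ1 library than in every DMSO library, while BKM120 replicate 2 reached the lowest DMSO library, and their part in the falls of the KLF genes was not tested.

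At 250 nM each, 18DS against JQ1 set the compound described as acting on PI3K and BET proteins beside one that acts on BET proteins. *KLF2* was higher with 18DS (131, 102 and 156 CPM) than with JQ1 (59.0, 39.7 and 49.4 CPM), with no overlap. The difference was 1.39 on the log2 scale, or 2.63-fold (SE 0.16, interval 1.05 to 1.74, edgeR adjusted p = 0.000731). It was the 1 member called among 9, and 2.37% of all tested genes were called higher. No member was called lower by edgeR, DESeq2 or limma-voom (0 of 9 each), 1.79% of all genes were, and 3 members were lower at an unadjusted edgeR p under 0.05. Over all genes TMM gave 313 higher and 236 lower calls, and total counts 208 higher and 414 lower. For *KLF3* the difference was -0.01 with an interval of -0.45 to 0.44, and for *KLF6* it was -0.23 with an interval of -0.48 to 0.03. *KLF13* (-0.27, interval -0.47 to -0.07, adjusted p = 0.113), *KLF16* (-0.50, interval -0.91 to -0.10, adjusted p = 0.143) and *KLF11* (-1.05, interval -1.89 to -0.21, adjusted p = 0.128) were lower with 18DS without passing, and *KLF7* (0.78, interval 0.19 to 1.36, adjusted p = 0.115) was higher without passing. Without 18DS replicate 1, *KLF11* (-1.78, adjusted p = 0.0179) and *KLF13* (-0.34, adjusted p = 0.0416) passed.

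**Figure D4:**
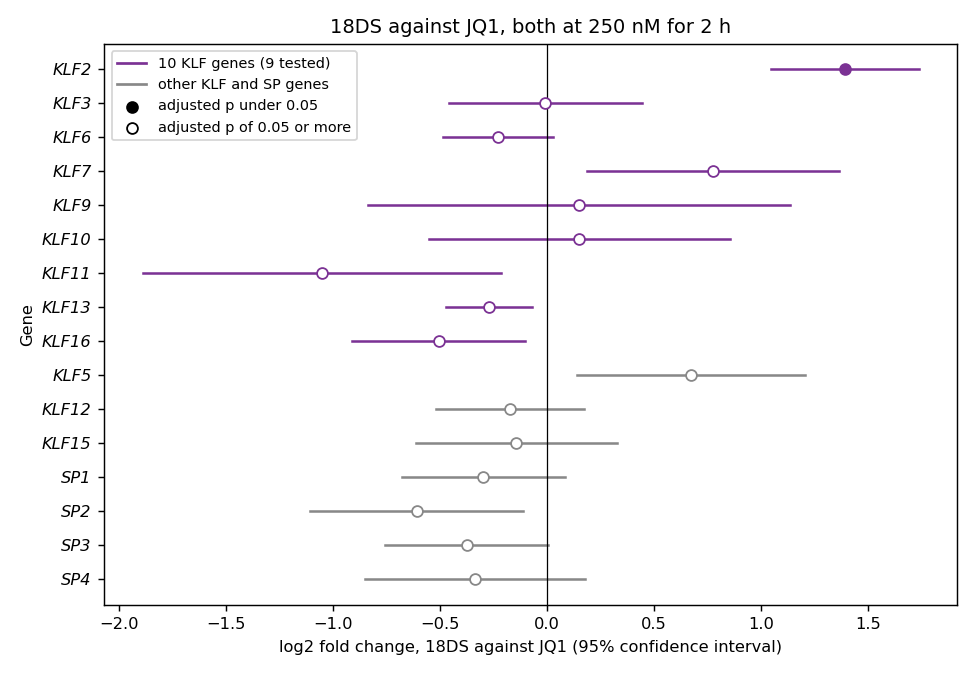
Log2 fold change of 18DS against JQ1, both at 250 nM for 2 h (horizontal axis, with 95% confidence intervals from the edgeR fit), for the 9 tested KLF members (purple) and 7 other KLF and SP genes (grey). KLF2, at 1.39, is the filled point with an adjusted p under 0.05.

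BKM120 was given at 1 µM, 4 times the dose of 18DS or JQ1, so values beside it describe these libraries and not the compounds at equal exposure. By level, *KLF2* ran from BKM120 through 18DS to JQ1 and DMSO. It was lower with 18DS than with BKM120 (log2 fold change -1.16, SE 0.15, edgeR adjusted p = 0.000144), and lower with JQ1 than with BKM120 (-2.56, SE 0.16, adjusted p = 1.72e-07), while JQ1 and DMSO did not differ beyond their spread. For *KLF13* the order was DMSO, BKM120, JQ1 and 18DS. It was lower with 18DS than with BKM120 (-0.62, adjusted p = 1.59e-05) and lower with JQ1 than with BKM120 (-0.35, adjusted p = 0.0103), a call lost without JQ1 replicate 2 (0.0747) or BKM120 replicate 1 (0.0781). In the other 7 tested genes no 2 groups next to each other in the order of levels passed the test.

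In all, 0 of 9 members were called higher and 5 lower with 18DS than with BKM120, where 4.64% of all tested genes were higher and 6.67% lower. With JQ1 against BKM120 0 were higher and 4 lower, where 7.19% of all genes were higher and 7.42% lower. DESeq2 and limma-voom also called 0 higher in both, and at an unadjusted edgeR p under 0.05 0 members were higher with 18DS and 1 with JQ1. *KLF3* was lower with 18DS (log2 fold change -0.96, adjusted p = 0.00101) and with JQ1 (-0.95, adjusted p = 0.00114) than with BKM120. *KLF9* was also lower with 18DS (-1.27, adjusted p = 0.0359) and with JQ1 (-1.42, adjusted p = 0.0174). The 18DS call for *KLF9* was lost without any 1 of the 18DS libraries or BKM120 replicate 1 or 3 (adjusted p = 0.0512 to 0.161) and with DESeq2 (adjusted p = 0.0655), and the JQ1 call without JQ1 replicate 2, JQ1 replicate 3 or BKM120 replicate 1 (0.0956 to 0.11). Without JQ1 replicate 1 the JQ1 difference was -2.09. *KLF11*, with the antisense limit given above, was lower with 18DS than with BKM120 (-1.54, adjusted p = 0.00498; -2.27 without 18DS replicate 1). The levels of *KLF16* and *KLF7* with 18DS were close to those with BKM120, with intervals of -0.42 to 0.43 for *KLF16* and -0.55 to 0.52 for *KLF7*. *KLF6* with 18DS (-0.36, adjusted p = 0.0565) passed without 18DS replicate 1 (0.0401), and *KLF16* with JQ1 (0.51, adjusted p = 0.0823) passed without BKM120 replicate 1 (0.0269).

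The rest of the KLF family and the related SP factors, most of which bind the same GC-rich elements, were mostly at low levels. Of 17 such genes 16 were in the table, 4 had 0 counts in all 12 libraries (*KLF14*, *KLF17*, *SP5*, *SP8*) and 7 were tested. With 18DS 1 rose and 3 fell, where 9.95% of all genes were higher and 11.0% lower. *KLF5* (ENSG00000102554), an activator of epithelial and smooth muscle growth that is closely related to *KLF2*, had 7.45, 9.98 and 5.82 CPM with 18DS, 4.63, 5.08 and 4.78 CPM with JQ1, 3.05, 1.91 and 2.51 CPM with BKM120 and 2.06, 3.85 and 1.83 CPM with DMSO. The 18DS libraries lay above all others and the JQ1 libraries above all DMSO and BKM120 libraries. *KLF5* rose with 18DS by 1.57 (SE 0.30, edgeR adjusted p = 0.000113), the difference with JQ1 was 0.90 (SE 0.31, adjusted p = 0.075), and with BKM120 it was -0.05 (adjusted p = 0.952). The 3 that fell with 18DS were *KLF15*, a metabolic regulator (-0.77, SE 0.22, adjusted p = 0.0091), the general GC-box factor *SP1* (-0.64, SE 0.18, adjusted p = 0.0101) and its relative *SP2* (-0.82, SE 0.24, adjusted p = 0.0119). With JQ1 1 rose, the CtBP-binding repressor gene *KLF12* (0.63, SE 0.18, adjusted p = 0.0231), and 0 fell, where 2.63% of all genes were higher and 3.45% lower. DESeq2 called 0 of this list higher with JQ1, and limma-voom 1. With BKM120 edgeR called 0 of 7, DESeq2 and limma-voom also called 0, and 1 was higher at an unadjusted p under 0.05. *SP3*, which encodes a competitor of SP1 for GC boxes, and *SP4* passed in none of the 3 comparisons with DMSO.

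Of 16 tested genes of the routes upstream of *KLF2*, 1 rose and 3 fell with 18DS, 0 rose and 1 fell with JQ1, and 2 rose and 1 fell with BKM120, by edgeR. The shares of all genes called higher and lower were 9.95% and 11.0% with 18DS, 2.63% and 3.45% with JQ1, and 4.07% and 4.14% with BKM120. With 18DS DESeq2 called 1 of this list higher and 2 lower, and limma-voom 2 higher and 3 lower. *MEF2D*, a member of the MEF2 family of transcription factors, fell with each compound. It had 113, 88.7 and 105 CPM with 18DS, 118, 130.4 and 144 CPM with JQ1, 108, 110.1 and 93.0 CPM with BKM120 and 185, 163 and 157 CPM with DMSO. Every inhibitor library was below every DMSO library, with log2 fold changes of -0.72 for 18DS (SE 0.09, adjusted p = 6.73e-07), -0.36 for JQ1 (SE 0.09, adjusted p = 0.0118) and -0.70 for BKM120 (SE 0.09, adjusted p = 5.01e-06). Its relative *MEF2C* rose with BKM120 (0.37, SE 0.08, adjusted p = 0.00126), and so did *FOXO1* (0.41, SE 0.11, adjusted p = 0.0205), the FOXO gene most studied in B cells. The other tested FOXO genes did not pass with BKM120, and their differences from DMSO did not share a direction. With 18DS *MAP3K3*, which encodes the kinase that starts the MEK5 cascade, rose by 0.72 (SE 0.16, adjusted p = 0.000964), while *MAPK7*, which encodes ERK5, fell by 0.94 (SE 0.33, adjusted p = 0.0385) with libraries that overlapped DMSO, and *HDAC7*, which encodes a MEF2-binding repressor, fell by 0.36 (SE 0.12, adjusted p = 0.0325). At unadjusted p under 0.05, edgeR gave 0 higher and 4 lower genes of this list with JQ1, and DESeq2 and limma-voom called 0 higher.

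Of 9 genes reported as KLF2 targets or partners in lymphocytes, endothelium or myeloma, 5 were tested and 2 (*S1PR1*, *CCR7*) had 0 counts throughout. *CDKN1A*, the gene for the cyclin-dependent kinase inhibitor p21, had 17.4, 14.9 and 17.5 CPM with 18DS, 17.1, 16.1 and 14.2 CPM with JQ1, 2.57, 3.24 and 4.30 CPM with BKM120 and 10.4, 7.55 and 8.80 CPM with DMSO. It rose with 18DS (0.89, SE 0.18, edgeR adjusted p = 0.000264) and JQ1 (0.81, SE 0.18, adjusted p = 0.00236) and fell with BKM120 (-1.42, SE 0.24, adjusted p = 6.1e-05), the group in which *KLF2* was highest. *IRF4*, the plasma cell factor on which myeloma cells depend, fell with 18DS (-0.67, SE 0.07, adjusted p = 9.05e-09), JQ1 (-0.63, SE 0.07, adjusted p = 8.41e-08) and BKM120 (-0.38, SE 0.07, adjusted p = 0.000667). *ITGB7*, an integrin gene of lymphocyte homing to the gut, was measured at 476 to 542 CPM in the 12 libraries and passed in none of these comparisons, with an interval of -0.14 to 0.14 for 18DS.

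Of 10 tested genes for KLF cofactors and for enzymes that modify or degrade KLF proteins, 0 rose and 2 fell with 18DS, *SIN3A* (-0.39, SE 0.14, edgeR adjusted p = 0.0471) and *CREBBP* (-0.36, SE 0.13, adjusted p = 0.0478). Both calls are near the threshold. DESeq2 called 0 of 10 lower and limma-voom 1, and 11.0% of all genes were called lower with 18DS by edgeR. With JQ1 0 of 10 passed by edgeR, DESeq2 or limma-voom, and 0 had an unadjusted p under 0.05. With BKM120 0 passed by any of them, and 2 were higher at an unadjusted p under 0.05. Among 7 genes of the TGF-beta route that induces *KLF10* and *KLF11*, *TGFBR2*, the type II receptor gene, fell with 18DS (-1.55, SE 0.41, adjusted p = 0.00411) and JQ1 (-1.65, SE 0.42, adjusted p = 0.00711), and 0 rose in either by edgeR, DESeq2 or limma-voom. With BKM120 0 of the 7 passed by any of them, and 1 was higher at an unadjusted p under 0.05. By edgeR *TGFBR2* was thus the 1 gene of 7 called with 18DS and with JQ1. Beside both lists, the shares of all genes called higher and lower were 9.95% and 11.0% with 18DS. They were 2.63% and 3.45% with JQ1, and 4.07% and 4.14% with BKM120. *TGFBR2* itself had 2.25, 0.70 and 1.57 CPM with 18DS, 1.03, 0.73 and 2.32 CPM with JQ1, 3.37, 3.68 and 1.61 CPM with BKM120 and 4.11, 4.17 and 5.48 CPM with DMSO.

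The genes whose levels followed *KLF2* most closely were found by the Pearson correlation of log2 CPM over the 12 libraries, among the 9851 tested genes that averaged 5 CPM or more. The 8 nearest were *BBC3*, *BTG1*, *RNF103*, *DEPP1*, *YPEL3*, *PLAAT4*, *COG5* and *TP53INP1*, with r between 0.94 and 0.97. The libraries share their groups, so these values describe likeness over 4 conditions and carry no test. *BBC3*, which encodes the proapoptotic protein PUMA, averaged 7.37 ± 1.36 CPM with 18DS, 3.999 ± 0.310 CPM with JQ1, 17.8 ± 1.89 CPM with BKM120 and 3.76 ± 0.844 CPM with DMSO. *BTG1*, an antiproliferative gene of lymphocytes, averaged 234 ± 14.8 CPM with 18DS, 166 ± 4.09 CPM with JQ1, 348 ± 18.1 CPM with BKM120 and 180.0 ± 6.89 CPM with DMSO. In each of the 8 genes the BKM120 mean was highest and the 18DS mean next. The genes were chosen for following *KLF2*, so this order is largely set by the choice and is no separate result. *RNF103*, which encodes an E3 ubiquitin ligase, came closest between these groups, at 70.2 ± 3.97 CPM with 18DS and 79.9 ± 7.01 CPM with BKM120. With Spearman's rank correlation in place of Pearson's, 3 of the 8 (*RNF103*, *PLAAT4*, *COG5*) remained among the nearest 8.

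**Figure D5:**
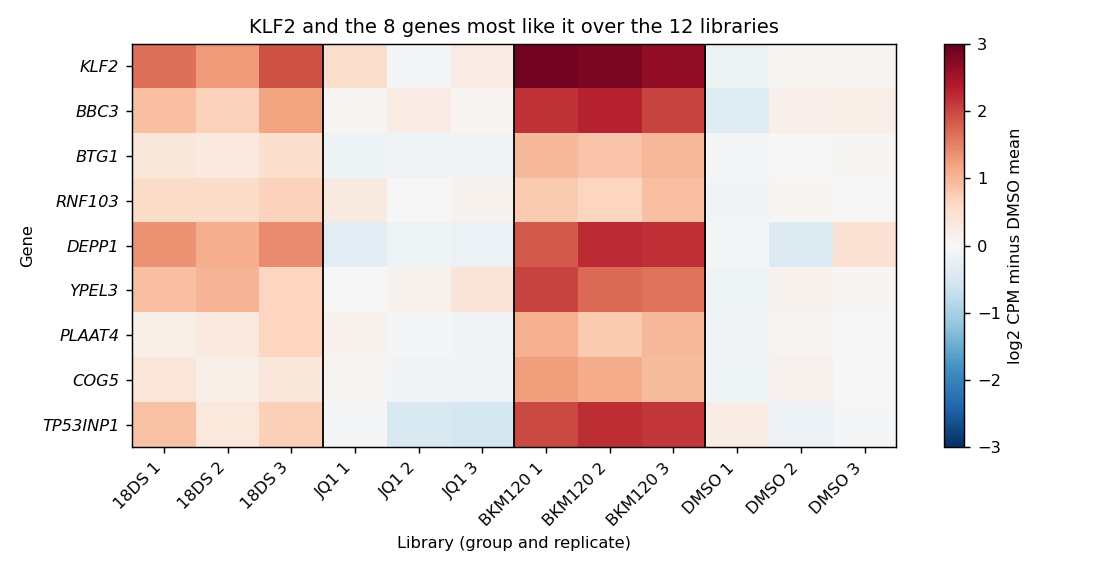
Log2 CPM minus the mean of the DMSO libraries (colour scale, red higher, blue lower) of KLF2 and the 8 genes most like it, for each of the 12 libraries; vertical lines part the groups. In each row the BKM120 group mean is the highest and the 18DS mean the next, and the JQ1 cells lie between -0.52 and 0.50. The 8 genes were chosen for following KLF2, which largely sets this order.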

How the data were processed

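The authors deposited raw whole-number counts for each Ensembl identifier in each of 12 libraries of OPM2 cells. Per the submitters' processing notes, HISAT2 2.1.0, featureCounts of Subread, SAMtools 1.9, limma, cutadapt 1.7, bcl2fastq 2.17.1.14 and FastQC 0.11.5 were used with hg19. Which annotation was counted, whether strand was used, and how multiply mapped reads were treated is not given in the sources used here. Symbols from a table of gene names matched 51662 of 63152 identifiers. Tags of overlapping genes on opposite strands may therefore be shared, and 8 pseudogenes named after members had 1 count in all.

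The KLF genes, the gene lists and the tests were chosen with earlier results of these data known, and the lists come from general knowledge of the pathways. Genes were kept by filterByExpr (minimum count 10, minimum total 15), which left 13180. TMM factors of 0.971 to 1.033 scaled the library sizes, and 1 robust quasi-likelihood fit of edgeR 4.0.16 in R 4.3.3 over all libraries gave the 6 pairwise comparisons. The calls are those with an adjusted p (Benjamini-Hochberg, over all tested genes of the comparison) below 0.05. Standard errors and 95% confidence intervals come from that fit, and the median SE of JQ1 against DMSO was 0.169. *KLF2* varied more than the fit expected for a gene of its level. The robust option therefore gave it 12.5 degrees of freedom against 34.1 to 35.3 for the other members. The named genes are the members, the tested KLF and SP genes, up to 4 called genes per list and comparison with DMSO, and the 8 genes most like *KLF2*; *ITGB7* was added after its values were seen, and 1 tested gene of the lists is not reported here. P-values measure the spread between libraries described as biological triplicates of 1 line.

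Same-numbered libraries of different groups did not deviate together, so no pairing was used in the fit. Other scalings, tests (DESeq2 1.42.0 and limma-voom with limma 3.58.1), filters, fits of 2 groups alone, fits with the replicate number as a block, and fits that leave out 1 library each were tried. Promoters were read from RefSeq (GRCh38.p14) with Python 3.11.15, and figures drawn with matplotlib 3.10.9.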

Additional observations from a re-analysis of the deposited data

How the results depend on the processing

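*KLF2* kept its direction and its side of the threshold in all 6 comparisons under each of the 20 alternatives, with log2 fold changes of 1.49 to 1.79 for 18DS against DMSO, 2.73 to 2.86 for BKM120 against DMSO and 1.24 to 1.55 for 18DS against JQ1. With 18DS against DMSO, 1 member was called higher with total counts, without a filter, with DESeq2's Wald test and with the 2 groups alone, since *KLF7* then missed (adjusted p = 0.0506, 0.0723, 0.0672 and 0.0529). With JQ1 against DMSO, 2 were called lower with total counts, without a filter and with the 2 groups alone, since *KLF3* then passed (0.0429, 0.0225 and 0.0165). With BKM120 against DMSO, upper-quartile factors gave 2 higher and 1 lower, and DESeq2 gave 1 lower, since *KLF13* missed (0.0817 and 0.06) and *KLF7* passed with upper-quartile factors (0.0436). With 18DS against BKM120, *KLF6* passed with total counts (0.0338) and *KLF9* missed with DESeq2 (0.0655), and with JQ1 against BKM120 *KLF7* passed with the 2 groups alone (0.0484). The cause of these shifts was not tested.

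Differences near 0 changed sign without passing. For 18DS against DMSO, *KLF10* was -0.030 with total counts and -0.038 with limma-voom. For BKM120 against DMSO, *KLF10* was -0.029 with total counts, -0.0057 without a filter and -0.019 with limma-voom. For 18DS against BKM120, total counts gave -0.0012 for *KLF10* and -0.033 for *KLF16*, and limma-voom -0.018 for *KLF10*. For 18DS against JQ1, *KLF3* was 0.011 with upper-quartile factors, 0.00046 with DESeq2 size factors, 0.0064 without a filter and 0.00059 with DESeq2's Wald test.

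Leaving out 1 library at a time gave 1 to 2 members higher and 4 to 5 lower for 18DS against DMSO. It gave 1 to 2 lower for JQ1 against DMSO, and 1 to 2 higher and 1 to 2 lower for BKM120 against DMSO. Between compounds it gave 0 to 2 lower for 18DS against JQ1 and 4 to 5 lower for 18DS against BKM120. For JQ1 against BKM120 it gave 0 to 1 higher and 2 to 4 lower. Over all genes it gave 504 to 1021 calls for JQ1 against DMSO, 487 to 1565 for BKM120 against DMSO, 105 to 1027 for 18DS against JQ1 and 1156 to 2317 for JQ1 against BKM120. The range of *KLF10* was -0.39 to 0.33 for 18DS, -0.32 to 0.037 for JQ1 and -0.24 to 0.25 for BKM120 against DMSO, -0.28 to 0.44 for 18DS against JQ1, -0.40 to 0.32 for 18DS against BKM120 and -0.37 to 0.12 for JQ1 against BKM120. *KLF11* ranged from -2.44 to -1.37 for 18DS against DMSO, *KLF7* from -0.076 to 0.37 for JQ1 against DMSO and from -0.079 to 0.059 for 18DS against BKM120, *KLF3* from -0.26 to 0.20 and *KLF9* from -0.17 to 0.83 for 18DS against JQ1, and *KLF16* from -0.17 to 0.26 for 18DS against BKM120.

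No scaling moved the median of all genes by 0.1 or more.

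Same-numbered libraries correlated at -0.128 to 0.0919 (18 pairs), and 3 of 12 libraries correlated best with their own number. With a replicate block the calls of the members were the same except for *KLF6* in 18DS against BKM120 (-0.37, adjusted p = 0.0311), and *KLF2* stood at 1.63 for 18DS against DMSO and 2.80 for BKM120 against DMSO. At this depth the low genes *KLF9*, *KLF10* and *KLF11* had standard errors of 0.31 to 0.49, and *KLF4* could not be tested.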

Other observations

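Over the 12 libraries the levels of several KLF genes followed each other, given here as Pearson correlations of log2 CPM without a test, since the libraries share their groups. *KLF13* went with *KLF11* (r = 0.85, within the antisense limit of *KLF11*), *KLF6* (r = 0.84) and *KLF3* (r = 0.81). *KLF2* went with *KLF7* (r = 0.81) and ran against *KLF16* (r = -0.78).

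*KLF8*, the third CtBP-binding repressor gene of the family beside *KLF3* and *KLF12*, did not pass the expression filter. It had 0.703, 0.350 and 0.630 CPM with 18DS, 1.37, 2.36 and 0.774 CPM with JQ1, 0.802, 0.883 and 0.896 CPM with BKM120 and 0.294, 0.803 and 0.831 CPM with DMSO. The 18DS libraries were below all JQ1 and BKM120 libraries, and the DMSO libraries overlapped each of the other groups. These differences were not tested. *SMAD7*, an inhibitor of TGF-beta signalling, had 3.23, 5.25 and 4.09 CPM with 18DS, 2.40, 3.26 and 3.74 CPM with JQ1, 6.90, 5.89 and 7.52 CPM with BKM120 and 3.96, 4.01 and 4.82 CPM with DMSO. All BKM120 libraries were above all others, and by edgeR the level with JQ1 was lower than with BKM120 (log2 fold change -1.08, adjusted p = 0.00442) at doses that differ. *KLF8* and *SMAD7* were chosen after their values were seen.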
